A study of Mus musculus with 42 samples.

Results

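Stromal cells of visceral adipose tissue (VAT), of the population labelled VmSC5, were kept under adipogenic differentiation with oncostatin M (OSM) or with PBS, and their poly(A) RNA was sequenced. The 6 libraries were taken by their titles, 3 with OSM and 3 with PBS, out of 42 libraries in the series. OSM was used at 10 ng/mL. Both groups came from mice of the genotype labelled Pparg-Tdt, and both were in adipogenic medium, so the PBS cultures are differentiating cells and not untreated stroma. The labels do not give the day of culture, the length of exposure to OSM, the species of the recombinant protein, the sorting gates of VmSC5, the age of the mice or what the Pparg-Tdt allele drives. They do not say whether the replicates were separate animals or separate wells, and all p-values rest on library-to-library spread that may be technical. Groups used for comparison were VmSC5 cultures with Treg and without Treg (n = 3 each), and VmSC5 after 8 days of adipogenic culture and freshly sorted VmSC5 (n = 3 each), all of the same genotype label. In the series, the OSM cultures look into which mediators of VAT regulatory T (Treg) cells act on adipogenesis.

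OSM is a cytokine of the interleukin-6 family. In mice it binds the OSM receptor beta chain (gene Osmr), which pairs with the shared signalling chain gp130 (Il6st) and activates Janus kinases and STAT transcription factors, STAT3 above all. STAT3 in turn induces Socs3, an inhibitor that shuts down signalling through gp130. Adipogenesis runs through the nuclear receptor PPAR gamma (Pparg) and the factor C/EBP alpha (Cebpa), which together switch on the genes of lipid uptake, lipid storage and adipokine secretion.

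Library totals were 1246295, 1072147 and 1521967 counts with OSM, and 1294329, 2078534 and 1172940 counts with PBS, with 15559 to 17437 genes detected in a library. The root mean square difference between libraries, on a log2(CPM + 1) scale over the genes tested, was 0.446 to 0.466 within the OSM group and 0.388 to 0.436 within the PBS group, against 1.09 to 1.15 between the groups. Counts of genes encoded in mitochondria made up 1.53% to 1.64% of the OSM libraries and 2.40% to 2.92% of the PBS libraries (exact two-sided permutation test, p = 0.1, the smallest that 3 against 3 allows). All 14 fibroblast and stromal markers were detected well enough to be tested, and together they took 56600 to 66900 CPM (counts scaled to a common library total) with OSM and 16100 to 16300 CPM with PBS, with 10 higher and 2 lower with OSM. Much of that sum was Col3a1, at a mean of 42900 CPM with OSM and 6850 CPM with PBS. The 2 lower markers were Nt5e and Vim.

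Of 9825 genes tested, 2245 were higher and 2255 lower with OSM at a Benjamini-Hochberg (BH) adjusted p under 0.05 in edgeR's quasi-likelihood test, together 4500 genes (45.8%; 22.8% higher and 23% lower). Past 2-fold, 1065 genes were higher (10.8%) and 948 lower (9.65%). The counts of gene lists below are to be read against these shares. A list member that passed the low-count filter only through the OSM group could only be called higher. A member that passed it only through the PBS group could only be called lower. Members with at least 10 counts a library on average in both groups are said to have enough counts in both groups. Levels are in CPM of the library total, given in replicate order. On these levels, all OSM libraries lay above all PBS libraries for 22.1% of the genes tested, and below them for 31.4%. Statements below that the groups did not overlap are to be read against those shares. Fold changes are log2 values of OSM over PBS ± SE from edgeR, and every adjusted p is from that test over all genes. The median log2 fold change over all genes tested was 0.004. These are bulk libraries, in which fewer cells of a type and less RNA per cell cannot be told apart.

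**Figure D1:**
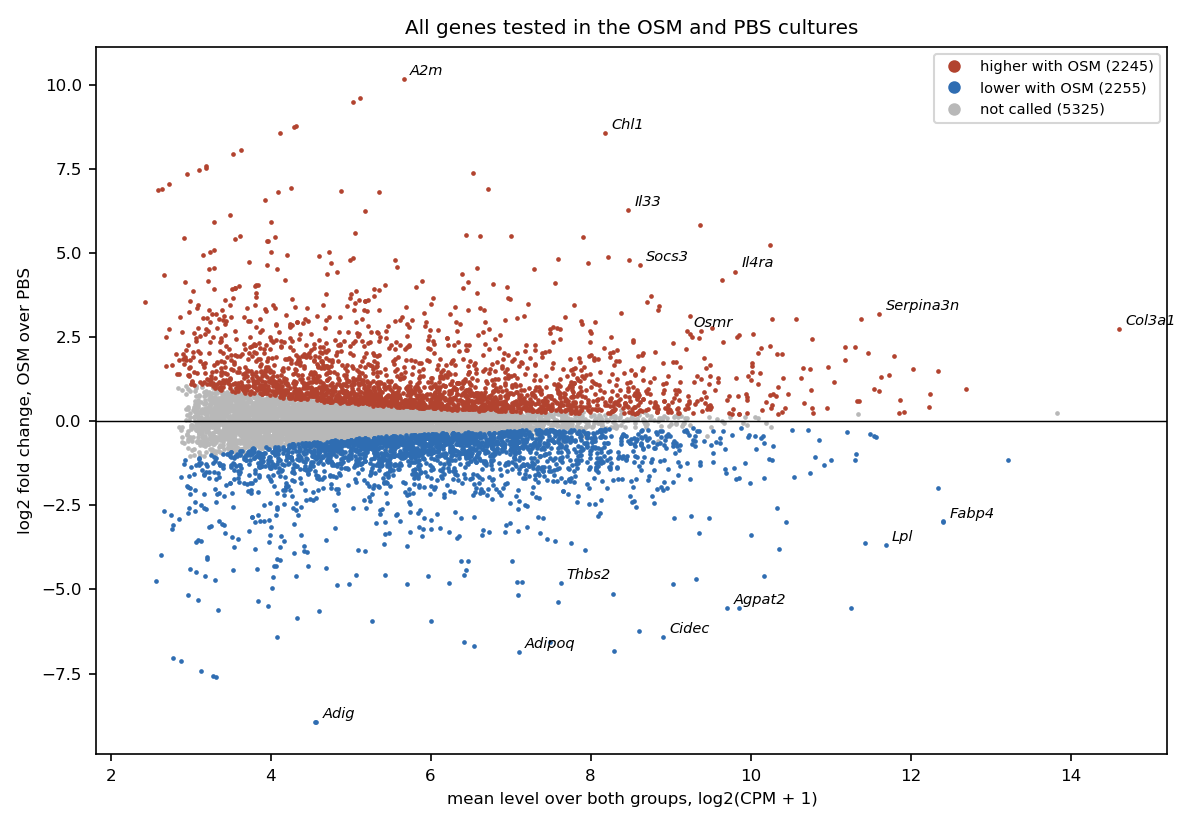
Log2 fold change of OSM over PBS (vertical axis) against the mean level over both groups on a log2(CPM + 1) scale (horizontal axis), 1 point for each of 9825 genes tested. Genes called higher with OSM are red, genes called lower with OSM are blue, and genes not called are grey. Il33 and Chl1 are among the labelled genes at the top of the plot, and Adipoq, Cidec and Agpat2 among those at the bottom.

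The receptor for OSM was itself higher with OSM. Osmr (GRCm38, chr15:6813577-6874969) had 997, 1020 and 1010 CPM with OSM, against 162, 178 and 169 CPM with PBS, a log2 fold change of 2.67 ± 0.09 (adjusted p = 5.15e-30). Il6st (chr13:112464070-112510086), the gp130 chain, had 1870, 1780 and 1650 CPM with OSM, against 280, 313 and 358 CPM with PBS (2.58 ± 0.09, adjusted p = 2.44e-29). No OSM library overlapped a PBS library for either chain. Per kilobase of annotated exon (RPKM, the CPM divided by that length), Osmr stood at 184 ± 1.98 RPKM with OSM and 30.9 ± 1.44 RPKM with PBS, and Il6st at 161 ± 9.92 RPKM with OSM and 28.9 ± 3.55 RPKM with PBS (SD, n = 3 each), so on that scale both chains were at similar levels within each group. Chains of related receptors are given on the same scale. Lifr, the chain for leukaemia inhibitory factor, was at 8.64 RPKM with OSM and 10.2 RPKM with PBS and did not pass the test (log2 fold change -0.16 ± 0.13, adjusted p = 0.358). Il11ra1, the receptor for interleukin-11, was at 49.6 RPKM with OSM and 40.1 RPKM with PBS, a rise of 0.40 ± 0.13 (adjusted p = 0.0107) that did not pass the test without PBS replicate 3 (adjusted p = 0.0799) or without OSM replicate 1 (0.161). Il6ra, the receptor chain specific for interleukin-6, averaged 0.137 RPKM with OSM and 1.12 RPKM with PBS and was too low to be tested, as was the leptin receptor gene Lepr at 0 RPKM with OSM and 0.0776 RPKM with PBS.

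Among the 25 ligands, receptors and JAK-STAT genes of the family, 18 were tested, 11 rose and 1 fell, with a median log2 fold change of 0.68. The count that fell was 2 without OSM replicate 1 or replicate 3, and 3 without OSM replicate 2 or PBS replicate 2. Of the 17 members with enough counts in both groups, 10 rose and 1 fell. Stat3 had 498, 506 and 457 CPM with OSM, against 174, 210 and 195 CPM with PBS (1.43 ± 0.09, adjusted p = 1.6e-18). An exon of it overlaps one of Stat5a in the annotation, and the strand setting of the counting is not given in the sources used here, so the split of reads between these neighbours is uncertain. The same holds for the other genes named here that share exon bases with other annotated genes. Among them are Il4ra, Hif1a, Cebpa, Pi16, Icam1, Col3a1, Irs1, Srebf1, Ddit3, Lipe, Pkm, Gpat3, Gpd1, Col15a1, Runx1 and Il11ra1. Jak2, one of the kinases bound to gp130, rose 6.95-fold (2.80 ± 0.22), while Jak1 averaged 472 ± 12.2 CPM with OSM and 470 ± 18.1 CPM with PBS (adjusted p = 0.293). Of the ligands, Il6 rose to 35.3, 22.4 and 27.6 CPM with OSM, against 0, 0.962 and 0.853 CPM with PBS, which is 110 counts against 3 (ratio 43.4, 95% counting interval 14.5 to 214). Osm itself had 0 counts in all 6 libraries, which allows at most 0.781 CPM over the OSM group and 0.66 CPM over the PBS group.

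Socs3, the feedback inhibitor, showed 709, 699 and 837 CPM with OSM, against 26.3, 34.2 and 36.7 CPM with PBS, a log2 fold change of 4.63 ± 0.12 (adjusted p = 2.61e-34). Il4ra, the alpha chain of the interleukin-4 and interleukin-13 receptors, had 1670, 1610 and 1830 CPM with OSM and 82.7, 77.5 and 92.9 CPM with PBS (4.45 ± 0.10, adjusted p = 1.34e-36). Its partner chain Il13ra1 rose 11.2-fold, so that both chains of the type II interleukin-4 receptor were higher. Hif1a, the oxygen-regulated transcription factor, had 946, 896 and 739 CPM with OSM and 185, 185 and 177 CPM with PBS (2.34 ± 0.09). These 4 genes had the smallest adjusted p of the 25 tested members of a list of STAT3 response and feedback genes, of which 17 rose and 2 fell (median 0.96), or 1 fell without OSM replicate 2. In that list 23 members had enough counts in both groups, of which 15 rose and 2 fell. The AP-1 gene Junb rose 6.93-fold, its relative Fosl2 6.88-fold, the serine kinase gene Pim1 10.3-fold and the immediate early gene Ier3 11.2-fold. Bcl3, an atypical inhibitor of NF-kappaB, rose to 35.5 ± 4.42 CPM with OSM, against 4.71 ± 2.61 CPM with PBS. Pim3, a kinase gene related to Pim1, moved the other way: it had 112, 86.7 and 110 CPM with OSM, against 570, 699 and 697 CPM with PBS (-2.56 ± 0.10, adjusted p = 2.74e-25).

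The stretches before the starts of these 4 genes and of Adipoq were read for the STAT motif TTCNNNGAA, on both strands, which for this palindrome are the same, and for the C/EBP motif TTGCNNAA, in the 250 bases before each start in a table from RefSeq (GRCm38.p6). Those of Socs3, Il4ra and Adipoq are shown 5′ to 3′ in the direction of transcription, as those of the feedback inhibitor, the receptor gene with the smallest adjusted p of the list and the adipokine. The stretches shown are Socs3 at chr11:117969452-117969616 (-) and Il4ra at chr7:125552021-125552119 (+), both ended where an annotated exon of the gene begins, and Adipoq at chr16:23146286-23146535 (+). Capitals mark the STAT motif.
Socs3: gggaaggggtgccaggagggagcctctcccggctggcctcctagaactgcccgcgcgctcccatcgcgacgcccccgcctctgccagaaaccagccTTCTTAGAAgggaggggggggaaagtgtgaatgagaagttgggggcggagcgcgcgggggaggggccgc
Il4ra: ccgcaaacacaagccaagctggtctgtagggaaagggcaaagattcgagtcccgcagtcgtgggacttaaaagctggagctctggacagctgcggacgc
Adipoq: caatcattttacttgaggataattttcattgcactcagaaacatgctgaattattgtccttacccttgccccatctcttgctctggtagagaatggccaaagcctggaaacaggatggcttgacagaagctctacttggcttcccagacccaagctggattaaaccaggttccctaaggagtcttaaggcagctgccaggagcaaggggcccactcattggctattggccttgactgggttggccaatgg
Socs3 held 1 match, TTCTTAGAA, from 154 to 146 bases before the RefSeq start. That start is not the only one annotated: in GENCODE M21 the coding Socs3 transcript begins 180 bases further downstream, and a noncoding transcript begins 681 bases upstream, so the Socs3 stretch lies inside the annotated gene and is not shown to be its promoter. The Hif1a window likewise lies inside its gene, whose most upstream transcript begins 6492 bases before the RefSeq start. Il4ra, Hif1a, Il13ra1 and Adipoq held none in this window, and none of the 5 held TTGCNNAA. The STAT motif stood in 5.98% of the 2256 windows of genes called higher, 5.57% of the 2315 windows of genes called lower, 5.83% of the 5421 windows of genes not called, and 7.02% of all 32851 windows of the table. Of the genes tested, 7824 had a window. TTGCNNAA stood in 8.24% of the windows of genes called higher, 7.82% of those called lower and 6.79% of those not called.

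**Figure D2:**
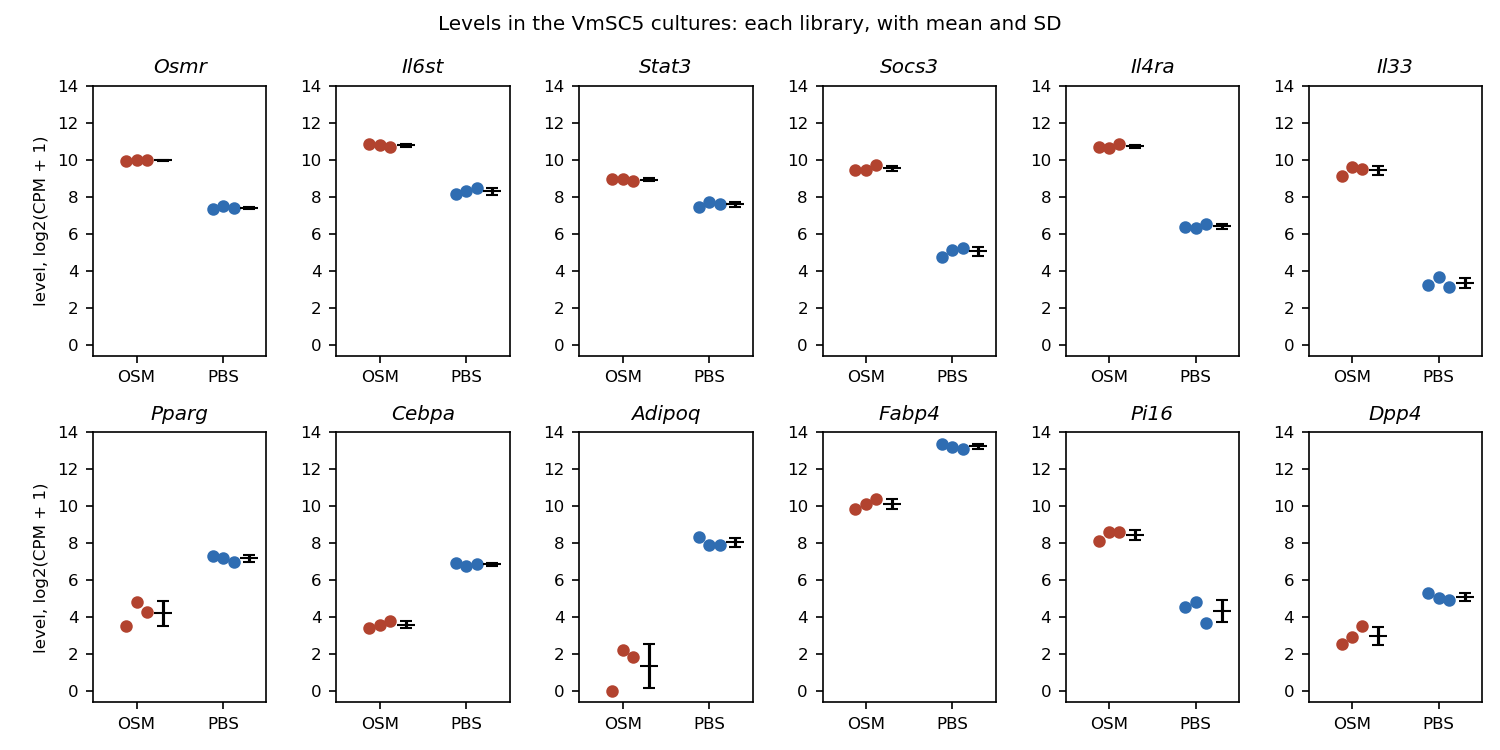
Levels of 12 genes on a log2(CPM + 1) scale in each of the 3 OSM libraries (red, left) and the 3 PBS libraries (blue, right), with the mean and SD of the log values in black. Receptor, STAT3 target and Il33 levels in the upper row are higher in every OSM library, while Pparg, Cebpa, Adipoq, Fabp4 and Dpp4 are lower in every OSM library and Pi16 is higher.

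Acute phase genes, which the liver and stroma secrete in inflammation, were mostly higher: of 17 tested, 13 rose and 2 fell (median 1.87). Among the 15 with enough counts in both groups, 11 rose and 2 fell. Serpina3n, a serine protease inhibitor, reached 5240, 5650 and 5860 CPM with OSM, against 673, 637 and 671 CPM with PBS (3.18 ± 0.08, adjusted p = 3.85e-34). It belongs to a family of near-identical copies, as does Serpina3m, so the split of reads among them is uncertain. Serping1, the inhibitor of complement component C1, averaged 4480 CPM with OSM and 1190 CPM with PBS (2.02 ± 0.08). The opsonin Ptx3 rose 5.1-fold, the siderophore-binding Lcn2 3.66-fold, the endotoxin-binding Lbp 2.99-fold and the glycoprotein gene Lrg1 17.5-fold. Saa3, the serum amyloid gene made outside the liver, had 2240, 2080 and 2230 CPM with OSM and a wide spread with PBS, at 294, 142 and 441 CPM (3.04 ± 0.44, adjusted p = 0.00518). Haptoglobin (Hp) and ceruloplasmin (Cp) were the members that fell, by 0.32 ± 0.08 and 0.42 ± 0.12 on the log2 scale. Hp, which adipocytes secrete, averaged 2010 CPM with OSM and 2710 CPM with PBS.

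Chemokines, cytokines and adhesion molecules were also mostly higher, with 14 of 17 tested higher, 1 lower and a median of 2.47. Of the 17, 13 had at least 10 counts a library on average in both groups, of which 10 rose and 1 fell. The other 4, Cxcl5 among them, passed the filter only through 1 group, so that only 1 direction could be called. Il33, the alarmin that in VAT supports Treg cells and group 2 innate lymphoid cells, had 569, 794 and 733 CPM with OSM, against 8.5, 11.5 and 7.67 CPM with PBS (6.27 ± 0.16, adjusted p = 2.4e-30). The neutrophil chemokine gene Cxcl5 reached 271, 236 and 237 CPM with OSM, against 7.73, 5.29 and 4.26 CPM with PBS, and Cxcl1 rose 8.67-fold. Cxcl13, which draws B cells, averaged 2680 CPM with OSM and 351 CPM with PBS (3.04 ± 0.10). The monocyte and eosinophil chemokine genes Ccl7, Ccl8 and Ccl11 rose 7.16-fold, 6.39-fold and 5.55-fold, and Cxcl12, the ligand of Cxcr4 and Ackr3, rose 2.42-fold. Icam1, an adhesion molecule that also marks committed preadipocytes, had 141, 143 and 170 CPM with OSM and 64.1, 59.7 and 56.3 CPM with PBS (1.44 ± 0.13, adjusted p = 4.2e-13). Ptges, the prostaglandin E synthase, was the member that fell (-0.48 ± 0.10).

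The adipogenic factors were lower. Pparg (chr6:115360951-115490399) had 10.4, 28 and 18.4 CPM with OSM, against 160, 150 and 127 CPM with PBS, a log2 fold change of -2.87 ± 0.19 (adjusted p = 7.4e-17). Cebpa (chr7:35119293-35121928) had 9.63, 11.2 and 13.1 CPM with OSM, against 120, 109 and 117 CPM with PBS (-3.21 ± 0.20, adjusted p = 2.59e-19). The highest OSM library stayed below the lowest PBS library for both genes. Of 17 adipogenic transcription factors tested, 11 fell and 3 rose (median -1.44). Enough counts in both groups were present for 15, of which 10 fell and 3 rose. The sterol and lipogenic factor gene Srebf1 fell 3.41-fold, the oxysterol receptor gene Nr1h3 3.31-fold, the retinoid X receptor gene Rxra 2.72-fold, the commitment factors Ebf2 and Zfp423 3.76-fold and 2.8-fold, and the glucose-sensing factor gene Mlxipl 11.2-fold. The early adipogenic factor Cebpd did not pass the test, at 23.3 ± 7.65 CPM with OSM and 17.1 ± 8.83 CPM with PBS (SD, n = 3 each; adjusted p = 0.128, and 0.0127 without PBS replicate 1), and Klf4 was at 20.2 ± 1.63 CPM with OSM and 16.1 ± 2.21 CPM with PBS (adjusted p = 0.234). Bhlhe40, a repressor of the circadian clock, rose 7.68-fold and Klf9 1.89-fold. Stat5a also rose, within the uncertainty of its overlap with Stat3.

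Genes of the adipocyte program were lower with OSM. Of the 27 tested, 19 had at least 10 counts a library on average in both groups, and all 19 fell. The other 8 passed the filter only through the PBS group, so that only a fall could be called, and the median of the 27 (-3.71) is no more than a description. None was higher in edgeR's test at an unadjusted p under 0.05 (0 genes), or in DESeq2 (0 genes). A further 6 of its 33 members were too low to be tested, among them leptin (Lep) and Pck1 at 0 in all 6 libraries. Adiponectin (Adipoq, chr16:23146536-23158028) had 0, 3.73 and 2.63 CPM with OSM, against 327, 243 and 244 CPM with PBS (-6.86 ± 0.27, adjusted p = 1.16e-19). Fabp4 (chr3:10204088-10208576), the fatty acid carrier of adipocytes, kept 916, 1110 and 1350 CPM with OSM, against 10800, 9600 and 8920 CPM with PBS (-3.01 ± 0.13, adjusted p = 1.81e-10). Both genes were lower in every OSM library than in any PBS library, with Adipoq at or near 0 and Fabp4 8.05-fold lower. Lpl and Cd36, which release and take up fatty acids, fell 12.8-fold and 12.4-fold. Carbonic anhydrase 3 (Car3), at 96.9 ± 22.4 CPM with OSM and 4810 ± 215 CPM with PBS, fell 46.4-fold. The insulin-responsive glucose transporter gene Slc2a4 averaged 2.43 CPM with OSM and 38.4 CPM with PBS. Caveolin-1 (Cav1) fell 14-fold and its partner Cavin1 by 1.15 on the log2 scale, the smallest change of the list being that of Insr (-0.80 ± 0.17). Adig, which encodes the small adipocyte protein adipogenin, was detected in no OSM library and at 46.4, 43.8 and 46 CPM with PBS, at least 57.7-fold lower against a floor of 3 counts over the OSM group.

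Lipid synthesis and storage followed, with unequal sizes along the pathway. Of 21 genes of lipid synthesis tested, 17 fell and 1 rose (median -1.61). Of the 21, 18 had enough counts in both groups, of which 14 fell and 1 rose. The other 3 passed the filter only through the PBS group, so that only a fall could be called. Genes of triglyceride assembly fell by very different amounts. Agpat2 had 23.3, 39.2 and 35.5 CPM with OSM, against 1700, 1620 and 1610 CPM with PBS (-5.55 ± 0.12, adjusted p = 1.87e-37). Dgat2 and Lpin1, for the steps after it, fell 11.8-fold and 11.2-fold, Dgat1 by 2.20 on the log2 scale, and Gpam, for the step before it, by 0.29, a call that ended without OSM replicate 1 (adjusted p = 0.0643). Gpat3, which is outside the list and acts at the same step as Gpam, averaged 3.64 CPM with OSM and 353 CPM with PBS. The fatty acid synthase gene Fasn fell 2.32-fold, at 219, 195 and 221 CPM with OSM and 556, 493 and 543 CPM with PBS, while Acly did not pass the test (-0.09, adjusted p = 0.387). Elovl5, an elongase of polyunsaturated fatty acids, was the member that rose (2.33-fold). Among 17 tested genes of lipolysis and the lipid droplet, 15 fell and 2 rose (median -2.99). Enough counts in both groups were present for 14 of them, of which 12 fell and 2 rose. The other 3 passed the filter only through the PBS group, so that only a fall could be called. Cidec, which enlarges droplets, averaged 10.3 CPM with OSM and 947 CPM with PBS (-6.42 ± 0.15), and the droplet coat gene Plin1 16.2 CPM with OSM and 603 CPM with PBS (-5.13 ± 0.13). The lipases of triglyceride and diglyceride, Pnpla2 and Lipe, fell 25.6-fold and 28.5-fold, and G0s2, an inhibitor of the triglyceride lipase, fell 24.4-fold. Hilpda, a hypoxia-induced inhibitor of the same lipase, rose instead, with 88.3, 84.9 and 82.8 CPM with OSM and 17, 22.6 and 17.1 CPM with PBS (2.23 ± 0.19). Thermogenic genes were mostly too low to be tested, 10 of 15, and Ucp1 had 0 counts in all 6 libraries. Of the 5 tested, 4 passed the filter only through the PBS group, so nothing is read from their count. Gk, glycerol kinase, had enough counts in both groups and fell by 0.65 on the log2 scale. The coactivators Ppargc1a and Ppargc1b averaged 2.22 and 1.74 CPM with OSM, against 22.3 and 53 CPM with PBS.

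Nuclear genes of mitochondrial metabolism were lower as a body, and by smaller steps. Of 36 subunits of oxidative phosphorylation, all tested, 34 fell and 0 rose (median -1.03), with 0 higher at an unadjusted p under 0.05 and 0 in DESeq2. Cycs, cytochrome c, had 28.9, 42.9 and 31.5 CPM with OSM, against 170, 180 and 193 CPM with PBS (-2.30 ± 0.15), and Cyc1 fell 3.54-fold. Ndufa1 averaged 117 CPM with OSM and 140 CPM with PBS, and Cox6c 135 CPM with OSM and 178 CPM with PBS, and neither passed the test (adjusted p = 0.381 and 0.0809). Cox6c was called lower without PBS replicate 2 (adjusted p = 0.0411) and without OSM replicate 3 (0.00159). Of 31 genes of fatty acid oxidation and the citric acid cycle tested, 29 fell and 1 rose (median -1.37). Idh3a, a subunit of isocitrate dehydrogenase, fell 9.92-fold, at 91.5, 130 and 116 CPM with OSM and 1230, 1170 and 1190 CPM with PBS. Pyruvate carboxylase (Pcx) fell 7.38-fold and the beta-oxidation enzyme gene Hadh 5.3-fold, whereas Cpt1a, the gate of fatty acid entry into mitochondria, rose 2.19-fold. Of 20 genes of branched-chain amino acid breakdown, 13 fell and 1 rose (median -0.88), with Bcat2 falling 6.1-fold and Auh rising 2.21-fold. Of the 8 tested genes encoded in mitochondria themselves, 6 fell and 1 rose (median -0.50), or 0 rose without PBS replicate 3, and mt-Nd1 averaged 5630 CPM with OSM and 13500 CPM with PBS. Among the 7 with enough counts in both groups, 5 fell and 1 rose. Whether the lower share of mitochondrial counts has a part in these differences was not tested.

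Glycolysis and hypoxia genes went the other way, with 15 of 22 tested higher and 2 lower (median 0.89). Of the 21 with enough counts in both groups, 14 were higher and 2 lower. The lactate exporter gene Slc16a3 had 319, 251 and 323 CPM with OSM, against 12.4, 16.8 and 10.2 CPM with PBS (4.54 ± 0.16, adjusted p = 5.15e-28). Pdk1, the kinase that keeps pyruvate out of the citric acid cycle, rose 6.4-fold, the glucose transporter gene Slc2a1 3.62-fold and Pkm, a glycolytic enzyme gene, 3.04-fold. The stress-responsive gene Ndrg1, a hypoxia target, rose 8.09-fold. Aldoa (-0.46 ± 0.08) and Pfkp (-0.36 ± 0.09) were the members that fell. Sterol genes were divided: 6 of 21 rose and 9 fell (median -0.10). Hmgcs1, an enzyme of cholesterol synthesis, fell 1.87-fold, and Insig1, which retains the sterol sensor in the endoplasmic reticulum, fell 5.5-fold. Abcg1, a sterol exporter and target of the oxysterol receptor, fell 6.84-fold, but Abca1, its fellow exporter, was at 156 ± 18.8 CPM with OSM and 146 ± 11.6 CPM with PBS (adjusted p = 0.158). In insulin signalling, 11 of 17 fell and 3 rose (median -0.80). Of the 15 with enough counts in both groups, 9 fell and 3 rose. The other 2, Irs1 among them, passed the filter only through the PBS group, so that only a fall could be called. Irs1, the receptor substrate, fell 10.5-fold, Pik3r1 4.28-fold and Akt2 2.43-fold, and Ptpn1, a phosphatase that switches off the insulin receptor, rose 3.96-fold.

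**Figure D3:**
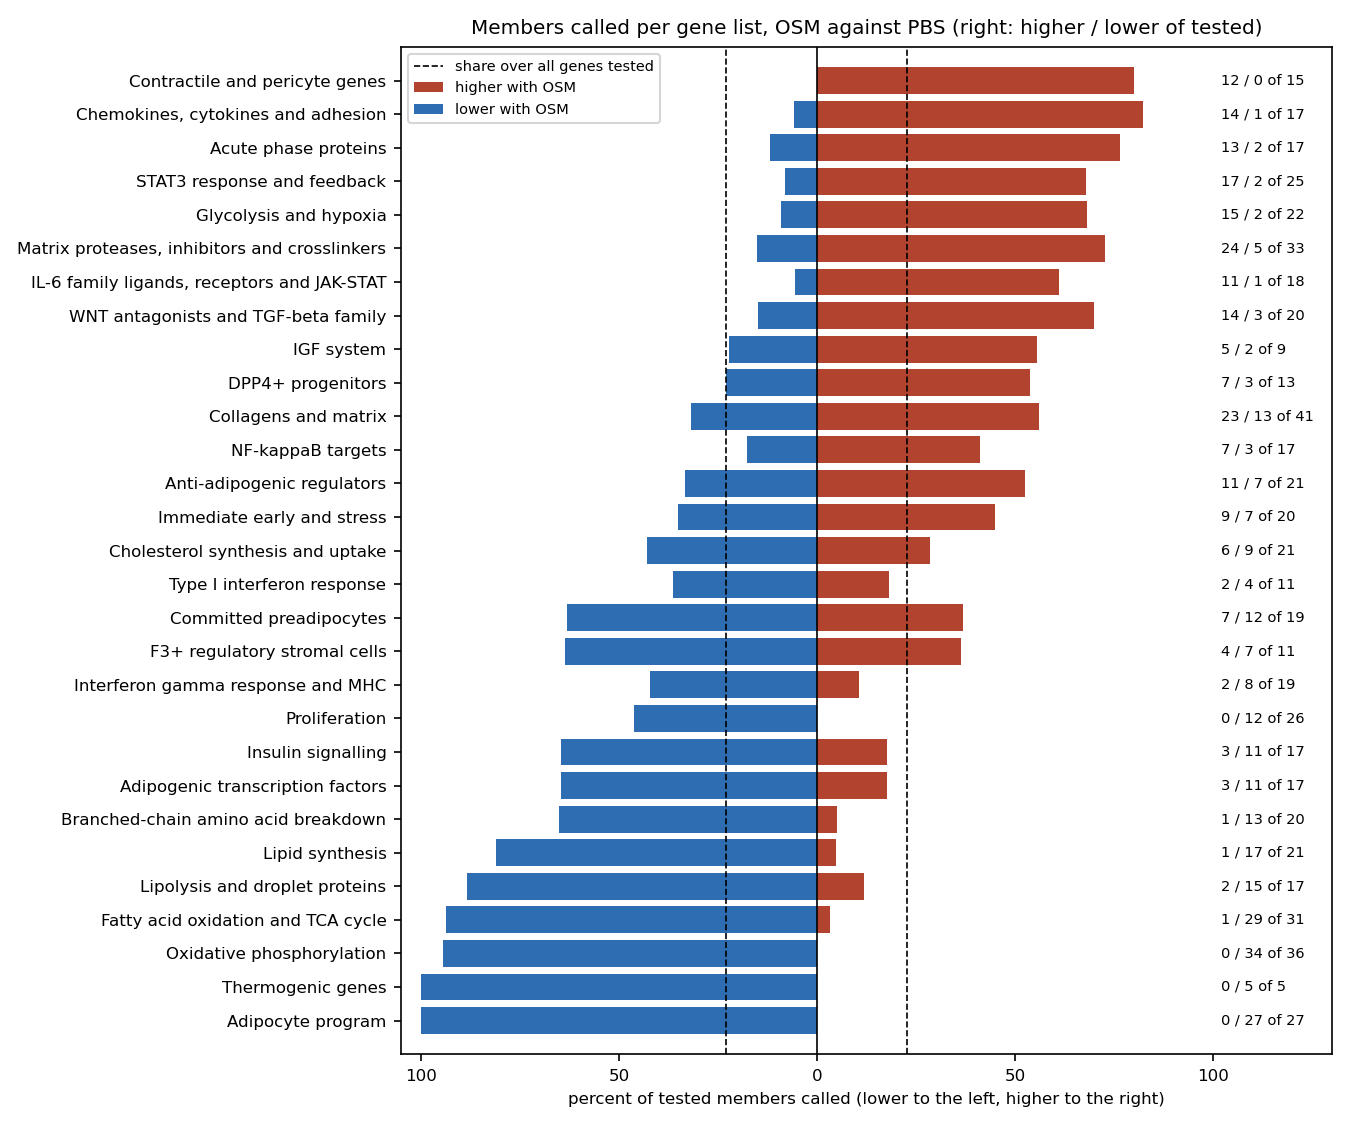
Percent of tested members called higher with OSM (red, to the right of 0) and called lower with OSM (blue, to the left of 0) in 29 gene lists, with the numbers of higher, lower and tested members at the right edge. The dashed lines mark 22.8% and 23%, the shares called higher and lower over all 9825 genes tested. Lists of lipid and mitochondrial metabolism lie at the bottom and contractile, chemokine, acute phase and STAT3 lists at the top.

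The stromal subsets of adipose tissue are told apart by marker genes, and these did not move as sets. In the list of DPP4+ interstitial progenitors, the cells thought to lie upstream of preadipocytes, 7 of 13 tested rose and 3 fell (median 1.02). Of the 13, 10 had at least 10 counts a library on average in both groups, of which 6 rose and 1 fell. Pi16 (chr17:29317680-29330593) had 282, 389 and 388 CPM with OSM, against 22.4, 27.4 and 11.9 CPM with PBS (4.12 ± 0.18, adjusted p = 1.78e-13). Dpp4 (chr2:62330073-62412231), which gives the subset its name, had 4.81, 6.53 and 10.5 CPM with OSM, against 39.4, 31.8 and 29.8 CPM with PBS (-2.04 ± 0.30, adjusted p = 1.42e-07). The leading pair of markers therefore changed in opposite directions, with no overlap between groups for either. Dpp4 passed the filter only through the PBS group, so that only a fall could be called for it. Ackr3, a scavenger receptor for Cxcl12, rose 11.1-fold, the adhesion gene Cadm3 23.9-fold and Gfpt2, of the hexosamine pathway, 3.9-fold, while Smpd3 fell 4.48-fold. Ly6a and Ly6c1, of a family with close copies, rose 3.54-fold and 3.62-fold.

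Of 19 tested markers of committed preadipocytes, 12 fell and 7 rose (median -0.83). Those that fell included the lipid genes described above, Col15a1 (5.22-fold) and Hsd11b1, which regenerates active glucocorticoid, at 35.3, 25.2 and 28.9 CPM with OSM and 467, 483 and 417 CPM with PBS (-3.82 ± 0.13, adjusted p = 9.37e-30). Those that rose included both platelet-derived growth factor receptor genes, Pdgfra (2.85-fold) and Pdgfrb (2.33-fold), Igf1 (3.43-fold), Ggt5 (6.67-fold) and Icam1. Markers of F3+ regulatory stromal cells, a subset described as limiting adipogenesis, were also divided, with 7 of 11 tested lower and 4 higher (median -0.31). Among the 10 with enough counts in both groups, 6 were lower and 4 higher. F3 itself averaged 386 ± 39.2 CPM with OSM and 515 ± 13.9 CPM with PBS (-0.31 ± 0.09, adjusted p = 0.00298, and 0.0567 without OSM replicate 2), whereas Aldh1a2, which makes retinoic acid, had 629, 473 and 610 CPM with OSM and 15.5, 22.6 and 23 CPM with PBS (4.89 ± 0.14). Among 21 tested genes listed as restraining adipogenesis, whose roles here were not tested, 11 rose and 7 fell (median 0.48). Of the 21, 15 had at least 10 counts a library on average in both groups, of which 7 rose and 5 fell. The other 6, Wnt4, Inhba and Runx1 among them, passed the filter only through 1 group, so that only 1 direction could be called. Wnt4 had 77.8, 63.4 and 66.4 CPM with OSM, against 0.773, 0.481 and 1.71 CPM with PBS (6.26 ± 0.36), Inhba, a subunit of activin, rose 12.1-fold, Runx1 10.9-fold and Id2 5.21-fold. The stress factor gene Ddit3 fell 2.65-fold, Tcf7l2 and Wwtr1 1.96-fold each, and Gata2 and Gata3 were too low to be tested.

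Matrix genes moved in both directions. Of 41 collagen and matrix genes, all tested, 23 rose and 13 fell (median 0.59). Enough counts in both groups were present for 39, of which 22 rose and 12 fell. Col3a1, a fibrillar collagen, took 45900, 45400 and 37300 CPM with OSM, against 6710, 6710 and 7120 CPM with PBS (2.75 ± 0.09, adjusted p = 8.72e-31). Col1a1 rose 3.83-fold, elastin (Eln) 10.5-fold and tenascin C (Tnc) 16.9-fold. By contrast the listed collagens of type IV, type VI and type XV fell, with Col6a2 at 419 CPM with OSM and 1610 CPM with PBS (-1.84 ± 0.08), Col15a1 as above, and Col4a1 and Col4a2 by 0.82 and 0.66 on the log2 scale. The matricellular genes Postn and Thbs2 fell 7.4-fold and 28.2-fold, and Thbs2 stood at 14.4, 12.1 and 11.2 CPM with OSM and 323, 422 and 396 CPM with PBS, while its relative Thbs1 rose 3.43-fold. Among matrix proteases, their inhibitors and crosslinkers, 24 of 33 tested rose and 5 fell (median 0.91). Timp1, an inhibitor of matrix metalloproteinases, averaged 4710 ± 319 CPM with OSM and 618 ± 63 CPM with PBS (3.04 ± 0.09). The crosslinking enzyme gene Loxl3 rose 5.6-fold, the collagen prolyl hydroxylase gene P4ha2 5.59-fold, the plasminogen activators Plat and Plau 9.04-fold and 6.55-fold, and the aggrecanase gene Adamts4 8.34-fold.

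Contractile and pericyte genes rose in 12 of 15 tested and fell in 0 (median 2.20), with 0 lower at an unadjusted p under 0.05 and 0 in DESeq2. Of the 15, 6 passed the filter only through 1 group, and of the 9 with enough counts in both groups 6 rose. Acta2, smooth muscle actin, had 1180, 880 and 1030 CPM with OSM, against 182, 208 and 160 CPM with PBS (2.58 ± 0.10), Myl9 rose 5.37-fold and Tpm1 3.54-fold. Kcnj8 and Abcc9, the channel pair of pericytes, had 79 counts with OSM against 1 with PBS (ratio 93.5, 95% counting interval 16.3 to 3740) and 65 against 2 (ratio 38.5, interval 10.2 to 324). Not passing the test were Notch3 at 17.6 CPM with OSM and 18.6 CPM with PBS, Mcam at 31.8 CPM with OSM and 22.9 CPM with PBS, and Des at 26.3 CPM with OSM and 35.4 CPM with PBS. Mcam was called higher without PBS replicate 1 (adjusted p = 0.0252) and without OSM replicate 2 (0.00742). WNT antagonists and genes of the TGF-beta family were higher in 14 of 20 tested and lower in 3 (median 1.26). Among the 17 with enough counts in both groups, 12 rose and 2 fell. The other 3, Sfrp4 among them, passed the filter only through 1 group, so that only 1 direction could be called. Sfrp4, a secreted WNT antagonist, had 299 counts with OSM against 3 with PBS (ratio 118, interval 40 to 575), Tgfbi rose 20.6-fold and Fstl1 4.63-fold. Tgfbr2 had 1360, 1340 and 710 CPM with OSM, of which the third is the low one, against 180, 188 and 197 CPM with PBS (2.69 ± 0.32, adjusted p = 0.00254). In the IGF system 5 of 9 tested rose and 2 fell (median 0.47), or 1 fell without PBS replicate 2. Of the 8 with enough counts in both groups, 5 rose and 1 fell. Igfbp4 averaged 6120 CPM with OSM and 2250 CPM with PBS (1.55 ± 0.08), and Igf1 484 CPM with OSM and 152 CPM with PBS. Igfbp3 had 1180, 895 and 314 CPM with OSM, against 51, 63.5 and 81.8 CPM with PBS (3.71 ± 0.67, adjusted p = 0.0111). Its call ended without PBS replicate 1 (adjusted p = 0.0519) and without PBS replicate 2 (adjusted p = 0.0574).

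Proliferation genes changed little: 12 of 26 tested fell and 0 rose, none past 2-fold (median -0.31). Likewise 0 were higher at an unadjusted p under 0.05 in edgeR's test and 0 in DESeq2. Rrm2, a subunit of ribonucleotide reductase, fell 1.6-fold and the replication helicase gene Mcm2 1.73-fold, while Mki67 was at 35.5 CPM with OSM and 53.9 CPM with PBS (-0.48, adjusted p = 0.035), a call that ended without OSM replicate 1 (0.196), OSM replicate 2 (0.129) or PBS replicate 2 (0.113). DESeq2 called 4 of these genes lower, and 7 were called without OSM replicate 1 or without OSM replicate 2.

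Interferon gamma and MHC genes were called lower more often than higher, while type I interferon genes were divided. In the interferon gamma and MHC list, 8 of 19 tested fell and 2 rose (median -0.34), and in the type I interferon list 4 of 11 fell and 2 rose (median -0.47), or 1 rose without OSM replicate 2. In the first list 16 genes had enough counts in both groups, of which 6 fell and 1 rose. In the type I list 9 did, of which 4 fell and 2 rose. Among those 4, Ddx58 was not called in DESeq2 (adjusted p = 0.202). Its call also ended without PBS replicate 1 or 3 and without OSM replicate 1, 2 or 3 (adjusted p from 0.0665 to 0.123). B2m, the light chain of MHC class I, had 277, 257 and 262 CPM with OSM, against 929, 978 and 934 CPM with PBS (-1.73 ± 0.08, adjusted p = 3.5e-23). The heavy chains H2-D1 and H2-K1, which have close copies, fell 2.61-fold and 1.92-fold, the class I activator gene Nlrc5 fell 6.96-fold, and the interferon-induced Iigp1 and Ifi27l2a fell 6.25-fold and 18-fold. The interferon genes Gbp2, Stat2 and Isg20 rose, by 1.04, 0.66 and 0.88 on the log2 scale, and DESeq2 did not call them (adjusted p = 0.0534, 0.103 and 0.0649). H2-Ab1, a chain of class II, rose to 21.7, 27 and 17.1 CPM with OSM, against 0.773, 3.37 and 4.26 CPM with PBS (2.98 ± 0.42), while its partner H2-Aa and the invariant chain Cd74 averaged under 1 CPM in both groups and were not tested. H2-Ab1 passed the filter only through the OSM group, so that only a rise could be called for it. Of 17 NF-kappaB targets tested, 7 rose and 3 fell (median 0.56), led by Tnfaip2 (9.27-fold higher), and Nfkbia, the classical inhibitor, was at 142 CPM with OSM and 154 CPM with PBS (adjusted p = 0.93). Among 20 tested immediate early and stress genes, 9 rose and 7 fell (median 0.31). Hspb1, a small heat shock protein, rose 3.18-fold and the phosphatase gene Dusp1 2.84-fold, while Trib3 and Chac1, targets of the integrated stress response, fell 2.89-fold and 2.3-fold.

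Several of the largest rises past 20 CPM began at or near 0 in the PBS cultures. A2m, alpha-2-macroglobulin, had 112, 95.1 and 90.7 CPM with OSM and 0 counts in the PBS libraries, at least 150-fold higher against a floor of 3 counts over the PBS group. The bone hormone gene Fgf23 and Tnfsf11, which encodes the osteoclast factor RANKL, were likewise at 0 with PBS and at least 100-fold and 92.3-fold higher. Tnfsf11 varied, with 98.7, 63.4 and 28.3 CPM with OSM (adjusted p = 0.0449), and its call ended without PBS replicate 1, 2 or 3 (adjusted p = 0.0806, 0.0714 and 0.0537) and without OSM replicate 2 (0.191). The inducible nitric oxide synthase gene Nos2, the receptor tyrosine kinase gene Kit, the cadherin gene Cdh6 and the WNT ligand gene Wnt16 were also at 0 with PBS and at least 57.2-fold, 56-fold, 34.3-fold and 31.6-fold higher. Chl1, a neural adhesion molecule, had 494, 657 and 575 CPM with OSM, against 1.55, 1.44 and 1.71 CPM with PBS (8.56 ± 0.20, adjusted p = 5.91e-36). Lmcd1, a LIM domain cofactor, averaged 182 CPM with OSM and 1.12 CPM with PBS, and Serpinb2, an inhibitor of plasminogen activator, 207 CPM with OSM and 1.80 CPM with PBS. Saa1, Ifitm1 and Frmd5 had 126, 215 and 104 counts with OSM against 1, 2 and 1 with PBS (ratios 149, 127 and 123, with counting intervals from 26.3, 34.8 and 21.6). Cpxm1, a secreted carboxypeptidase-like protein, had the smallest adjusted p of all genes and is named for that after its values were seen, with 2160, 2330 and 2600 CPM with OSM and 67.2, 60.6 and 74.2 CPM with PBS (5.25 ± 0.10, adjusted p = 3.92e-38).

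Among the largest falls were genes of fat storage. Adig and Cyp2e1, a cytochrome P450 of adipocytes and liver, were at 0 with OSM and at least 57.7-fold and 57.2-fold lower. Reep6, which shapes membranes, had 3.21, 4.66 and 6.57 CPM with OSM, against 585, 611 and 656 CPM with PBS (-6.84 ± 0.16, adjusted p = 2.41e-35). The glycerol pathway was well represented: Gpd1, which makes glycerol 3-phosphate, averaged 9.04 CPM with OSM and 770 CPM with PBS, and the glycerol channel gene Aqp7 1.67 CPM with OSM and 125 CPM with PBS. Acsl1, which activates fatty acids, had 18.5, 55 and 36.1 CPM with OSM and 1860, 1760 and 1810 CPM with PBS (-5.55 ± 0.22). Itih5 and the prostaglandin-degrading enzyme gene Hpgd, neither of them a lipid storage enzyme, fell 95.1-fold and 61.1-fold. Irs3, Atp2a3 and Acot5 had 3, 2 and 1 counts with OSM against 216, 172 and 143 with PBS.

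Markers of other cell types were read for cells that the cultures could hold. The T, NK and B cell markers were too low for edgeR's filter in all 14 cases. DESeq2 called Il2ra higher (log2 fold change 3.21, adjusted p = 0.0403), with 22 counts with OSM against 3 with PBS. Of the 14 markers, 7 were at 0 in all 6 libraries, with a sum of 4.01 to 11.2 CPM with OSM and 0.853 to 1.55 CPM with PBS. Hba-a1 and 4 other erythrocyte genes were at 0 throughout, and S100a8, S100a9 and 4 further neutrophil and mast cell genes were at 0, in a list of 11 whose sum was 33.5 to 45.7 CPM with OSM and 2.32 to 4.33 CPM with PBS, most of it Kit with OSM. Macrophage transcripts were present in both groups: 9 of 14 markers were tested, 2 rose (Cd14 and Csf1r) and 0 fell (1 was lower at an unadjusted p under 0.05 and 0 in DESeq2), the 14 summed to 324 to 549 CPM with OSM and 368 to 387 CPM with PBS, and Lyz2 did not pass the test (0.28 ± 0.24, adjusted p = 0.399, and 0.0202 without OSM replicate 1). Of the 7 macrophage markers with enough counts in both groups, 1 rose and 0 fell. Cd14 passed the filter only through the OSM group, so that only a rise could be called for it. The call of Csf1r ended without PBS replicate 1 (adjusted p = 0.0532) and replicate 2 (0.207), and without OSM replicate 2 (0.0683) and replicate 3 (0.0917), and 1 macrophage marker was called lower without PBS replicate 3 or OSM replicate 3. Endothelial transcripts were higher: of 12 markers 8 were tested and 8 rose (0 lower at an unadjusted p under 0.05 and 0 in DESeq2), 4 of them passing the filter only through the OSM group, and the 12 summed to 298 to 352 CPM with OSM and 99.7 to 116 CPM with PBS. Pecam1 had 57.8, 50.4 and 74.2 CPM with OSM and 11.6, 14 and 12.8 CPM with PBS, and Cdh5 19.3, 27 and 22.3 CPM with OSM and 7.73, 5.77 and 2.56 CPM with PBS. Neither was at 0 in any library. Kit and the pericyte genes rose beside them, and the part of endothelial cells in these differences was not tested. The 12 mesothelial markers summed to 413 to 447 CPM with OSM and 174 to 237 CPM with PBS. Of the 6 tested, Upk3b, Upk1b, Msln and Lrrn4 fell, and Wt1 and Ptgis, which stromal cells also express, rose. The 4 that fell passed the filter only through the PBS group, so that only a fall could be called for them. Upk3b was at 0 with OSM and at 19.3, 16.8 and 10.2 CPM with PBS, at least 20.3-fold lower, and the part of mesothelial cells in other genes that fell was not tested.

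To place these changes against adipogenic culture as a whole, the OSM cultures were set beside VmSC5 after 8 days of adipogenic culture compared with freshly sorted VmSC5. These comparisons share no library. In the culture comparison 8950 of 12140 genes were called (73.7%; 35% higher and 38.8% lower), and depth and preparation differ between its groups, with 1871258 to 2326279 counts a library after culture and 8527769 to 9709350 in fresh cells, and cannot be told apart from culture. Of 9577 genes tested in both comparisons, 37.6% were higher and 36.9% lower after culture. Of the 2240 of them that were lower with OSM, 1505 (67.2%) were higher after culture, which is 41.8% of the 3602 genes higher after culture, and 372 (16.6%) were lower. Of the 2147 higher with OSM, 1203 (56%) were lower after culture, 34.1% of the 3532 genes lower after culture, and 461 (21.5%) were higher. Across the 9577 genes the log2 fold changes had a Pearson correlation of -0.40, a description across genes, which are not independent. Opposite pairs are plain among named genes: Agpat2 was at -5.55 with OSM and 9.28 after culture, Adipoq at -6.86 and 13.59, Pi16 at 4.12 and -4.60, Ackr3 at 3.47 and -5.62, and Col3a1 at 2.75 and -4.18.

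Some genes departed from that pattern of opposite changes. Slc16a3, Pdk1 and Pkm rose with OSM (4.54, 2.68 and 1.60) and were also higher after culture (4.99, 5.60 and 4.14). Acta2 likewise was at 2.58 ± 0.10 with OSM and 4.94 after culture (adjusted p = 0.00536). Hsd11b1, Gdf10, Fmo2, Col15a1 and Dpp4 were lower with OSM (-3.82, -1.82, -3.25, -2.38 and -2.04) and also lower after culture (-2.31, -7.14, -7.51, -1.91 and -2.03). Osmr, which rose with OSM, was at 0.10 after culture (adjusted p = 0.491).

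**Figure D4:**
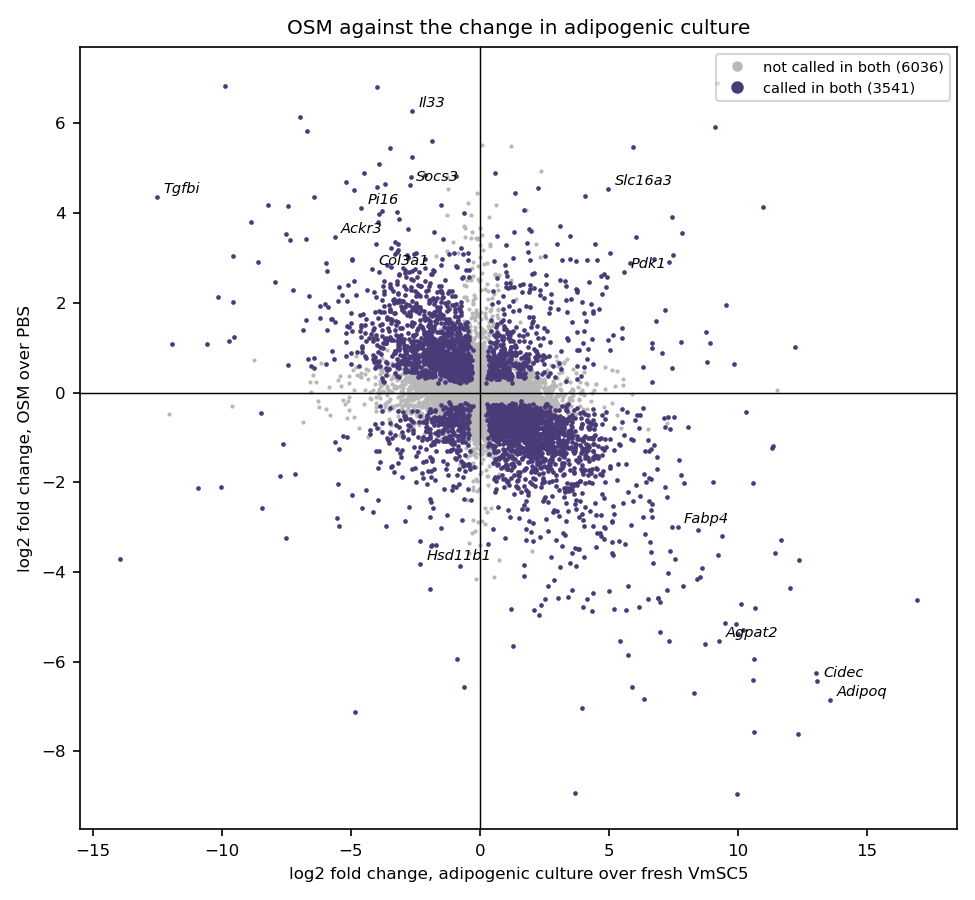
Log2 fold change of OSM over PBS (vertical axis) against log2 fold change of adipogenic culture over fresh VmSC5 (horizontal axis), 1 point for each of 9577 genes tested in both. Purple points were called in both comparisons and grey points were not, and named genes are labelled. Points called in both crowd the upper left and lower right, where the changes are opposite, with Adipoq at -6.86 and 13.59.

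The series also exposed VmSC5 in adipogenic differentiation to Treg cells: the titles say with or without Treg, and the series text speaks of medium conditioned by VAT Treg cells. Those cultures were sequenced deeper, at 7182339 to 7933682 counts a library with Treg and 4648878 to 6520542 without Treg, and they share no library with the OSM and PBS cultures. With Treg, 5357 of 12356 genes were called (43.4%; 22.4% higher and 21% lower). Among 9733 genes tested in both, 1086 were higher in both responses, 50.2% of the genes higher with OSM and 47.3% of those higher with Treg. Lower in both were 1151, 51.1% of the genes lower with OSM and 51.9% of those lower with Treg. A further 295 were lower with OSM and higher with Treg, and 167 the reverse. The difference between the responses, tested as an interaction in 1 fit of the 4 groups, was called for 3941 of 12112 genes (32.5%; 15% with a more positive response to OSM and 17.5% with a more negative one).

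Adipocyte genes fell further with OSM. Adipoq was at -6.86 ± 0.27 with OSM and -1.32 with Treg (difference -5.53, adjusted p = 5.32e-11), Agpat2 at -5.55 ± 0.12 and -0.54 (difference -4.97, adjusted p = 2.32e-31), and Plin1 at -5.13 ± 0.13 with OSM and -0.02 with Treg, where it did not pass the test (difference -5.08, adjusted p = 7.85e-30). Pparg was at -2.87 ± 0.19 with OSM and -0.22 with Treg (difference -2.61, adjusted p = 4.81e-14). Socs3 and the receptor genes rose in both responses, and more with OSM: Socs3 was at 4.63 and 2.41 (difference 2.26, adjusted p = 1.19e-13), Il4ra at 4.45 and 2.22 (difference 2.28), Osmr at 2.67 and 1.27 (difference 1.44) and Il6st at 2.58 and 0.85 (difference 1.77). Secreted and adhesion genes were divided in the interaction test. The difference passed for Serpina3n (0.58), Il33 (2.33), Timp1 (0.75), Ptx3 (-1.49), Cxcl13 (-1.82), Hp (-0.89) and Cp (-1.39), with adjusted p from 3.85e-12 to 0.00089. It did not pass for others, among them Icam1, Serpina3m and Serping1. Icam1 was at 1.44 with OSM and 1.85 with Treg (difference -0.37 ± 0.18, adjusted p = 0.109), Serpina3m at 3.31 and 3.50 (difference -0.15 ± 0.14, adjusted p = 0.471) and Serping1 at 2.02 and 1.90 (difference 0.16 ± 0.09, adjusted p = 0.176).

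Several antigen presentation and interferon genes moved in opposite directions in the responses. B2m was at -1.73 ± 0.08 with OSM and 2.61 with Treg (difference -4.30, adjusted p = 4.44e-34), H2-K1 at -0.94 and 3.63 (difference -4.53), Bst2, a tetherin that traps virions, at -1.33 and 5.69 (difference -6.97) and Iigp1 at -2.64 and 5.71 (difference -8.31, adjusted p = 2.13e-35). H2-Ab1 rose in both, at 2.98 with OSM and 7.15 with Treg (difference -4.08, adjusted p = 8.35e-06). Outside that group, Hsd11b1 fell with OSM and rose with Treg (-3.82 and 2.66, difference -6.45, adjusted p = 2.13e-35), as did Dpp4 (-2.04 and 0.69, difference -2.69), Ddit3 (-1.41 and 1.93, difference -3.30) and Rrm2 (-0.67 and 1.29, difference -1.92). Acta2 rose with OSM and fell with Treg (2.58 and -0.49, difference 3.11, adjusted p = 6.94e-06). The experiment and its depth differ together with the agent, so a difference between responses cannot be told apart from a difference between experiments.

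**Figure D5:**
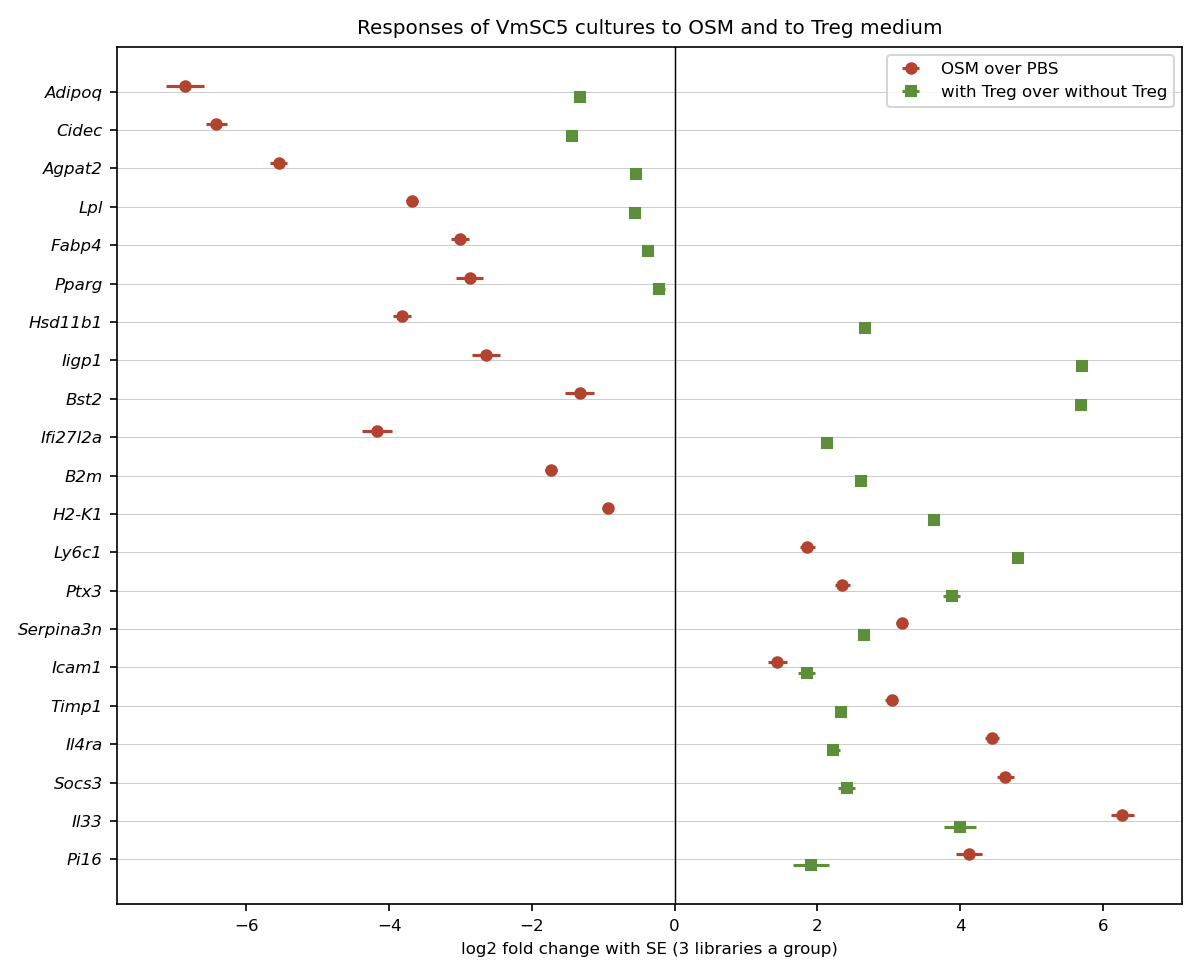
Log2 fold changes with SE of 21 genes for OSM over PBS (red circles) and for cultures with Treg over without Treg (green squares), 3 libraries in each group. The adipocyte genes at the top lie between -6.86 and -2.87 for OSM and between -1.44 and -0.22 for Treg, Hsd11b1 and the interferon and MHC genes in the middle lie on opposite sides of 0, and the genes from Ly6c1 down lie to the right of 0 for both.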

How the data were processed

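Gene counts of poly(A) RNA were taken as the authors deposited them, as whole-number raw counts of 55011 genes, of which 24297 had a count in these 6 libraries. Per the submitters' processing notes, reads were aligned to mm10 with STAR 2.7.3a and counted with featureCounts. The annotation release, the strand setting and the treatment of shared reads are not given in the sources used here. Per the labels' protocols, wells of a 96-well plate were lysed in 20 µL and 5 µL was submitted. From the counts, edgeR 4.0.16 in R 4.3.3 (quasi-likelihood F test, robust, TMM, minimum count 10) fitted each comparison, with BH adjustment over all genes, two-sided, called under 0.05. SE is the size of the log2 fold change over the square root of F. Intervals and floors cover counting error only. Positions and exon lengths are from GENCODE M21. The scripts were tested on simulated data. Alternatives were RLE scaling, DESeq2 1.42.0, other filters, a replicate block, a joint fit and each library left out, with library totals without TMM added after the data were seen. Genes were named by rule: a fixed set of 11, up to 4 called members a direction of each of 37 lists by adjusted p, and the 15 largest rises and falls past 20 CPM. Other list members were named after their values were seen. The members and lists were chosen with earlier results of these data known. Some genes of the lists are not reported here by name.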

Additional observations from a re-analysis of the deposited data

How the results depend on the processing

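The main comparison gave 4500 calls. It gave 4507 with RLE size factors, 4505 with no low-count filter, 3736 with the filter at a minimum count of 30, 5159 in a fit with the Treg medium cultures, 3354 with DESeq2, 4574 on library totals without TMM (chosen after seeing the data, with 41.6% of calls higher, against 49.9%) and 3989 to 4364 with 1 library left out. Same-numbered OSM and PBS libraries did not deviate together (correlations 0.005, -0.083 and 0.046). No pairing by number was seen, but at this depth such correlations cannot exclude a pairing, and the labels do not state any. With the replicate number as a block, 4400 genes were called. Alternatives were run for 277 genes, those named by rule and 59 others named in the text, and 0 reversed. Calls ended in 50 gene and setting pairs and appeared in 11. In DESeq2, Fos, Plin3, Gsk3b, Isg20, Stat2, Ddx58, Gbp2, Nfkbib, Stc2, Csf1r, Il11ra1 and Mki67 were not called (adjusted p 0.0504 to 0.232), with the block Igfbp3 was not (0.054), and on library totals Acly was called (0.0486). List counts moved by more than 1.5 times in 48 of 962 list and setting pairs. In the IL-6 family list, 2 to 3 genes were lower by DESeq2, without a filter, in the joint fit, on library totals and with most libraries left out. With the minimum count of 30, 3 thermogenic and 0 mesothelial genes were lower and 5 endothelial genes higher. Genes under a few CPM, cytokines among them, could not be tested at this depth.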
